A study of Homo sapiens with 6 samples.

Results

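The retinoblastoma pocket proteins and the E2F factors they bind were followed at the transcript level in 5637 cells, an established human bladder carcinoma line, after YKT6 knockdown. YKT6 encodes a SNARE protein of vesicle fusion. The 10 genes described, out of 36887 in the count table, were taken by name: the pocket protein genes RB1, RBL1 and RBL2, the activator E2F genes E2F1, E2F2 and E2F3, the repressor E2F genes E2F4, E2F7 and E2F8, and TFDP1, which encodes the DP1 partner. All 10 passed the filter on low counts, as did 21036 genes in all. The 3 siYKT6 samples received siRNA against YKT6 and the 3 siNC samples a negative control siRNA, and RNA was taken 48 h after transfection. All 6 samples were of the same line, and the labels name no other treatment. The labels do not state whether the 3 siYKT6 samples received 1 siRNA or several. Nothing states that the samples of a group were separate cultures, so p-values measure the spread between these samples, which may be technical.

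Pocket proteins bind E2F factors and recruit enzymes that close chromatin at E2F target promoters. Cyclin D with CDK4 or CDK6, and then cyclin E with CDK2, phosphorylate the pocket proteins, which releases the activator E2Fs and lets S phase genes be transcribed. RB, the RB1 product, mainly holds E2F1, E2F2 and E2F3, whereas p107 (RBL1) and p130 (RBL2) mainly hold E2F4 and E2F5. With the MuvB core, p130 or p107 forms the DREAM complex, which represses cell cycle genes in quiescent cells. E2F7 and E2F8 repress without a DP partner or a pocket protein. Loss of RB1 and amplification of E2F3 recur in bladder carcinoma, and 5637 has been described as lacking functional RB protein and as carrying an amplified E2F3 region. A transcript level says nothing of the protein, of its phosphorylation or of which complex it is in.

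Several genes of the family are themselves E2F targets, so their start sites were searched for the E2F words TTTCCCGC, TTTCGCGC, TTTGCCGC and TTTGGCGC on both strands. The search covered 250 bases before each RefSeq start site (GRCh38.p14). Of the 10 genes, 9 had an entry (E2F8 had none), and 5 of these held a word: E2F1, E2F2, E2F3, RBL1 and TFDP1. These 9 genes have 11 entries, and the second E2F3 start site held no word. Over all 35116 promoter entries, 979 (2.79%) held one, a share of entries and not of genes. Among all tested genes with an entry, 604 held a word and 10827 did not. The sequences below show where the words sit, with the words in capitals. A word written as its reverse complement reads GCGG or GCGC first.
E2F1 (chr20:33686386-33686434, minus strand): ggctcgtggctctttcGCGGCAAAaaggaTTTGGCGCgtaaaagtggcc
E2F2 (chr1:23531252-23531291, minus strand): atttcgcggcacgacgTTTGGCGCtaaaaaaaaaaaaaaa
E2F3 (chr6:20401810-20401849, plus strand): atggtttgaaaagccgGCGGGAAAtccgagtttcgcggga
RBL1 (chr20:37095998-37096039, minus strand): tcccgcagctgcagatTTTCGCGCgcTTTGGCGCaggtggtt
TFDP1 (chr13:113584617-113584656, plus strand): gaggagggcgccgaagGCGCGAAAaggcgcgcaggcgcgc
E2F1 held 2 words, which began 33 and 20 bases before the start site, and RBL1 held 2, which began 26 and 16 bases before it. The single words of E2F2, E2F3 and TFDP1 began 42, 53 and 120 bases before their start sites. None of the 4 words was found in the windows of E2F4, E2F7 and RBL2. The RB1 entry, at 48476450, lies inside the gene body, near the gene end at 48481986, and is not shown. The promoter at the start of RB1 was thus not searched. A word is a match of letters and not a measured binding site.

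The libraries held between 57546297 and 64429709 counts in siYKT6 samples and between 45205238 and 64982015 counts in siNC samples. Mitochondrial genes took 8.44% to 8.73% of the counts in siYKT6 samples and 7.91% to 8.24% in siNC samples, without overlap. CPM are counts scaled to a library size that was itself adjusted between samples. YKT6 was at 17.7, 19.4 and 17.3 CPM in siYKT6 samples, against 64.5, 65.3 and 68.2 CPM in siNC samples, so the knockdown matched the labels. Its log2 fold change was -1.86 (SE 0.0477; edgeR quasi-likelihood test, Benjamini-Hochberg adjusted p = 5.3e-17 over all genes tested, n = 3 each). A gene is called at an adjusted p below 0.05 in this test, and fold changes are siYKT6 over siNC. The summed level of 9 epithelial markers was 2191 to 2261 TPM (a level scaled for gene length and library size) in siYKT6 samples and 2817 to 2927 TPM in siNC samples. Of these 9, EPCAM was called higher, KRT5, TP63, KRT19, KRT8 and CDH1 lower, and 3 were not called. Fibroblast markers summed to 9.88 to 10.6 TPM in siYKT6 samples and 8.98 to 9.09 TPM in siNC samples, and COL1A1 was called higher (0.26 on the log2 scale). Leukocyte markers summed to 4.15 to 5.15 TPM in siYKT6 samples and 5.32 to 6.17 TPM in siNC samples, and CD68 was called lower (-0.32), a call lost with DESeq2 and without siYKT6 sample 1 or 2 or siNC sample 1 or 2 (-0.40 to -0.23 over all alternatives). Endothelial markers summed to 0.477 to 0.588 TPM in siYKT6 samples and 0.349 to 0.535 TPM in siNC samples, and VWF was called higher (1.01), a call lost without siNC sample 2 (0.72). PTPRC, CD3E, CDH5 and TEK did not pass the filter, and none of the markers was at 0 in all 6 samples. The part of the mitochondrial share and of these markers in the results below was not tested.

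Of the 10 genes, 9 were called in siYKT6 cells: 6 higher and 3 lower. Over all genes tested, 30.8% were called, 14.6% as higher and 16.3% as lower. In 9 of the 10, all 3 siYKT6 samples lay above or below all 3 siNC samples, which held for 41.8% of all genes tested. The activator genes E2F1, E2F2 and E2F3, the atypical repressor genes E2F7 and E2F8, and TFDP1 were higher, by 1.09-fold to 1.60-fold. RBL1, RBL2 and E2F4 were lower, at 0.865 to 0.892 of the siNC level, and RB1 was the 1 gene not called. The median log2 fold change of the 10 was 0.13, against 0.00219 for all genes tested. In a bulk sample, a different share of cells in a cell cycle phase and a different RNA level per cell cannot be told apart.

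**Figure D1:**
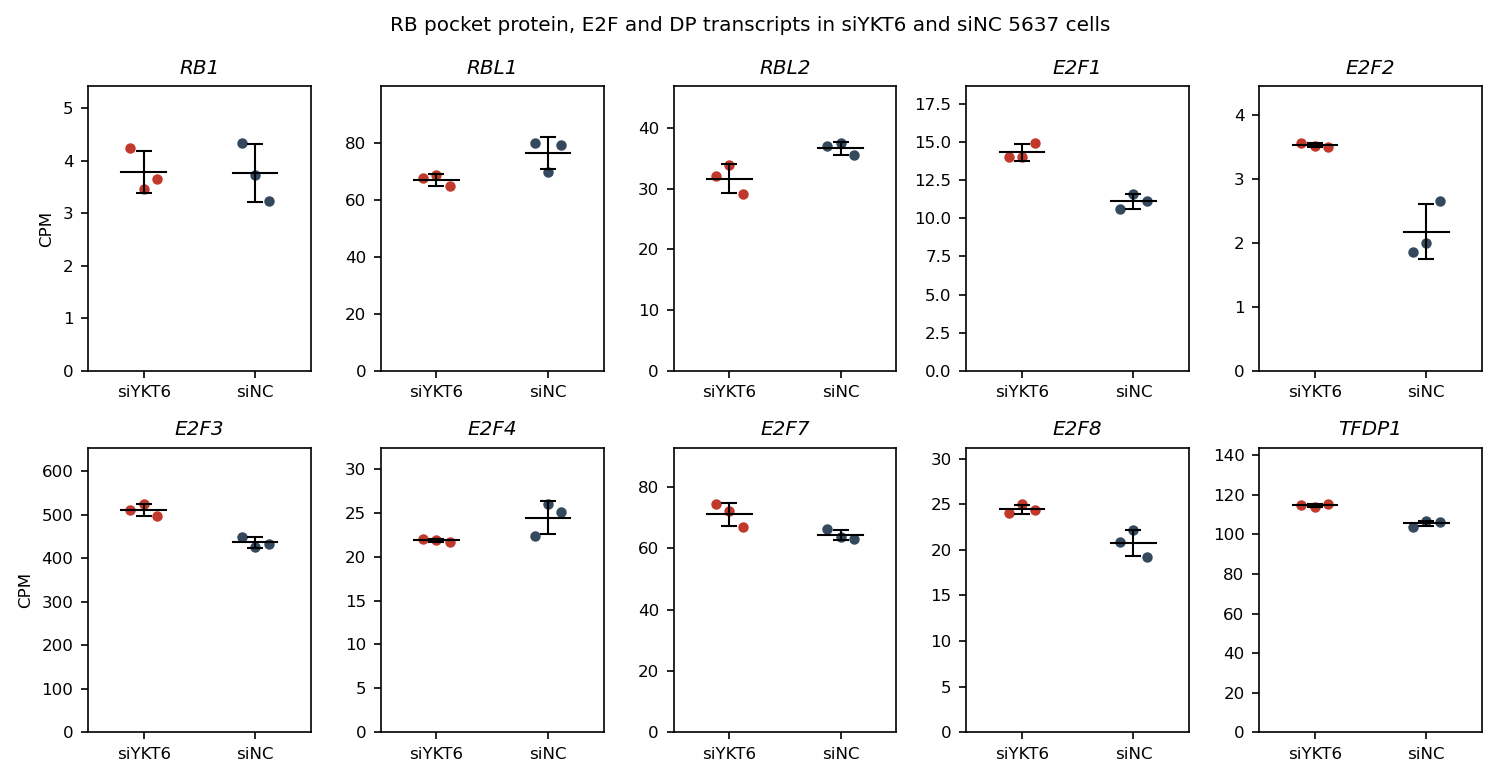
Each panel gives 1 gene in CPM on a linear axis from 0, with the 3 siYKT6 samples left and the 3 siNC samples right as points, the mean as a bar and the SD as whiskers. The groups overlap for RB1 and do not overlap for the other 9 genes.

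RB1 (chromosome 13 of GRCh38, 48303751 to 48481986, plus strand) encodes RB, the pocket protein lost in retinoblastoma. It was at 4.24, 3.46 and 3.65 CPM in siYKT6 samples, against 4.34, 3.72 and 3.24 CPM in siNC samples. The groups overlapped fully, and the highest and the lowest value were both siNC samples. These levels rest on 211 to 276 counts per siYKT6 library and 186 to 208 counts per siNC library. The log2 fold change was 0.02 (SE 0.122; adjusted p = 0.924 in the same edgeR test), and its 95% interval ran from 0.851-fold to 1.21-fold. Changes of RB1 within that interval are compatible with these counts. The estimate turned negative without siYKT6 sample 1 (-0.07) or without siNC sample 3 (-0.09).

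RB1 transcripts were scarce but present in this line. Per length, RB1 averaged 1.60 ± 0.184 TPM in siYKT6 samples and 1.58 ± 0.222 TPM in siNC samples (SD, n = 3 each). This level ranked at the 23.9 to 27.1 percentile of the tested genes in siYKT6 samples and at the 23.4 to 27.4 percentile in siNC samples. RBL1 had 19.7 times and RBL2 7.62 times the TPM of RB1, as means over the 6 samples. RB1 thus made up 3.79% ± 0.417 of the summed pocket protein TPM in siYKT6 samples and 3.31% ± 0.446 in siNC samples. The ranges overlapped, with a difference of 0.480 percentage points (exact two-sided permutation p = 0.3). With 3 against 3 samples this test allows no p below 0.1, so no outcome could have passed at 0.05. RBL1 carried 69.5% ± 0.758 of the pool in siYKT6 samples and 69.5% ± 2.05 in siNC samples.

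Both genes of the p107 and p130 proteins were lower after YKT6 knockdown. RBL1 (chromosome 20, 36996349 to 37095995, minus strand) was at 67.6, 68.7 and 64.7 CPM in siYKT6 samples, against 79.9, 69.9 and 79.1 CPM in siNC samples. The siYKT6 samples all lay below, though the second siNC sample came close to the highest of them. Its log2 fold change was -0.19 (SE 0.0460; edgeR adjusted p = 0.0033). RBL2 (chromosome 16, 53433977 to 53491649, plus strand) measured 32.0, 33.8 and 29.1 CPM in siYKT6 samples, against 36.9, 37.5 and 35.5 CPM in siNC samples. Here too every siYKT6 sample lay below every siNC sample. RBL2 had a log2 fold change of -0.21 (SE 0.0508; edgeR adjusted p = 0.00307). With RB1 added, the summed pocket protein level was 42.3 ± 2.23 TPM in siYKT6 samples and 47.8 ± 1.90 TPM in siNC samples, with no overlap (exact permutation p = 0.1, the smallest possible).

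All 3 activator genes rose, E2F2 by the largest factor, then E2F1 and E2F3. E2F1 (chromosome 20, 33675683 to 33686404, minus strand), the founding member of the family, was at 14.0, 14.0 and 14.9 CPM in siYKT6 samples, against 10.6, 11.6 and 11.1 CPM in siNC samples. The gap between the groups was wider than the range within either. Its log2 fold change was 0.36 (SE 0.0632; edgeR adjusted p = 1.2e-04). E2F2 (chromosome 1, 23506430 to 23531220, minus strand) was at 3.56, 3.52 and 3.50 CPM in siYKT6 samples, against 1.86, 2.00 and 2.66 CPM in siNC samples. The siYKT6 samples were close together and the third siNC sample stood nearest to them. E2F2 had the largest fold change of the 10 genes, at 0.68 on the log2 scale (SE 0.135; edgeR adjusted p = 4.9e-04, 95% interval 1.32-fold to 1.95-fold). These E2F2 levels rest on few reads, 202 to 232 counts per siYKT6 library and 83 to 171 counts per siNC library. Over all alternatives the log2 fold change of E2F2 ran from 0.58 to 0.87, and it was called in each.

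E2F3 (chromosome 6, 20401906 to 20493715, plus strand) was the most abundant of the 10 genes. It was at 511, 523 and 497 CPM in siYKT6 samples, against 449, 426 and 433 CPM in siNC samples, with a wide gap between the groups. The log2 fold change was 0.23 (SE 0.0322; edgeR adjusted p = 9.9e-06). Its TPM lay at the 97.9 to 98.1 percentile of the tested genes in siYKT6 samples and at the 97.6 to 97.7 percentile in siNC samples. Over the 6 samples E2F3 had 18.0 times the mean TPM of E2F1 and 175 times that of E2F2. It therefore made up 94.0% ± 0.324 of the activator TPM in siYKT6 samples and 94.6% ± 0.375 in siNC samples (exact permutation p = 0.1). The counts are per gene, so the E2F3a and E2F3b transcripts, which start at different first exons, are summed.

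The repressor genes did not move as 1 class. E2F4 (chromosome 16, 67192169 to 67198918, plus strand), which works with p107 and p130, measured 22.0, 21.9 and 21.6 CPM in siYKT6 samples, against 22.3, 25.9 and 25.1 CPM in siNC samples. The first siNC sample lay just above the siYKT6 samples. Its log2 fold change was -0.17 (SE 0.0546; edgeR adjusted p = 0.0252), and the call was lost when siYKT6 sample 1, 2 or 3 or siNC sample 2 or 3 was left out. Over all alternatives the log2 fold change of E2F4 ran from -0.22 to -0.12 and its adjusted p from 0.00393 to 0.136.

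E2F7 and E2F8 encode the atypical E2Fs, which carry a pair of DNA-binding domains and are themselves induced by E2F in S phase. E2F7 (chromosome 12, 77021247 to 77065580, minus strand) was at 74.3, 72.2 and 66.9 CPM in siYKT6 samples, against 66.3, 63.8 and 63.0 CPM in siNC samples. The third siYKT6 sample nearly touched the first siNC sample. The log2 fold change was 0.15 (SE 0.0420; edgeR adjusted p = 0.0106), and the call was lost without siYKT6 sample 1 or without siNC sample 3. Over all alternatives the log2 fold change of E2F7 ran from 0.11 to 0.19 and its adjusted p from 9.4e-04 to 0.0760. E2F8 (chromosome 11, 19224063 to 19241620, minus strand) was at 24.0, 25.0 and 24.4 CPM in siYKT6 samples, against 20.8, 22.2 and 19.3 CPM in siNC samples. All siYKT6 samples lay above, and its log2 fold change of 0.24 (SE 0.0544; edgeR adjusted p = 0.00175) was called under every alternative.

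TFDP1 (chromosome 13, 113584721 to 113641470, plus strand) encodes DP1, the partner with which E2F1 to E2F6 bind DNA. It was at 115, 114 and 115 CPM in siYKT6 samples, against 104, 107 and 106 CPM in siNC samples. The spread within each group was small beside the gap, and the log2 fold change was 0.12 (SE 0.0335; edgeR adjusted p = 0.00969). E2F5, a partner of p130, was at 21.3 ± 0.382 CPM in siYKT6 samples and 24.8 ± 0.426 CPM in siNC samples, a log2 fold change of -0.22 (edgeR adjusted p = 0.00134), so that both E2F genes whose products work with p107 and p130 were lower. E2F6, which represses without pocket proteins, had 0.01 and TFDP2, the gene of DP2, 0.03, and neither was called (edgeR adjusted p = 0.962 and 0.700).

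**Figure D2:**
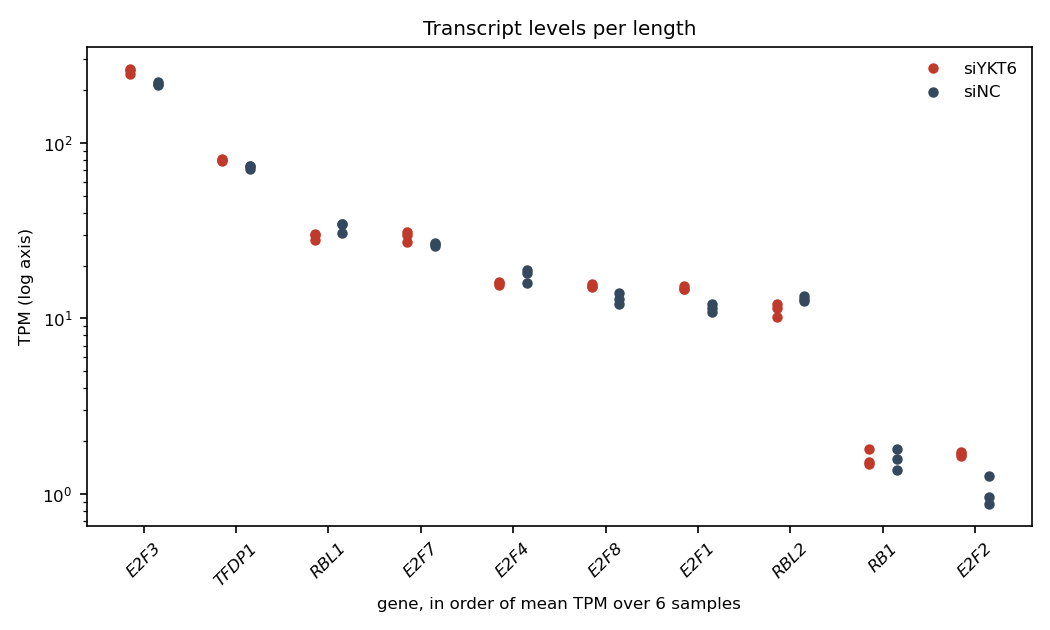
TPM on a log axis for the 10 genes in order of their mean over 6 samples, with 1 point per sample and siYKT6 left of siNC for each gene. E2F3 stands alone at 215 to 265 TPM, and RB1 and E2F2 lie lowest, at 0.874 to 1.81 TPM.

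Per length, the order of levels over the 6 samples was E2F3, TFDP1, RBL1, E2F7, E2F4, E2F8, E2F1, RBL2, RB1 and E2F2. E2F3 averaged 238 TPM, TFDP1 76.6 TPM, RBL1 31.3 TPM and E2F7 28.0 TPM. E2F4 averaged 16.8 TPM, E2F8 14.2 TPM, E2F1 13.2 TPM and RBL2 12.1 TPM, while RB1 was at 1.59 TPM and E2F2 at 1.36 TPM. Neighbours were set apart beyond their ranges at E2F3 over TFDP1, TFDP1 over RBL1, E2F7 over E2F4, and RBL2 over RB1. The ranges of RBL1 and E2F7, of E2F4 and E2F8, of E2F8 and E2F1, of E2F1 and RBL2, and of RB1 and E2F2 overlapped. The order of group means differed at 3 of these pairs. In siYKT6 samples E2F2 (1.69 TPM) stood above RB1 (1.60 TPM), E2F7 (29.5 TPM) above RBL1 (29.4 TPM) and E2F1 (14.9 TPM) above RBL2 (11.3 TPM). In siNC samples RB1 (1.58 TPM) stood above E2F2 (1.03 TPM), RBL1 (33.2 TPM) above E2F7 (26.5 TPM) and RBL2 (13.0 TPM) above E2F1 (11.5 TPM).

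**Figure D3:**
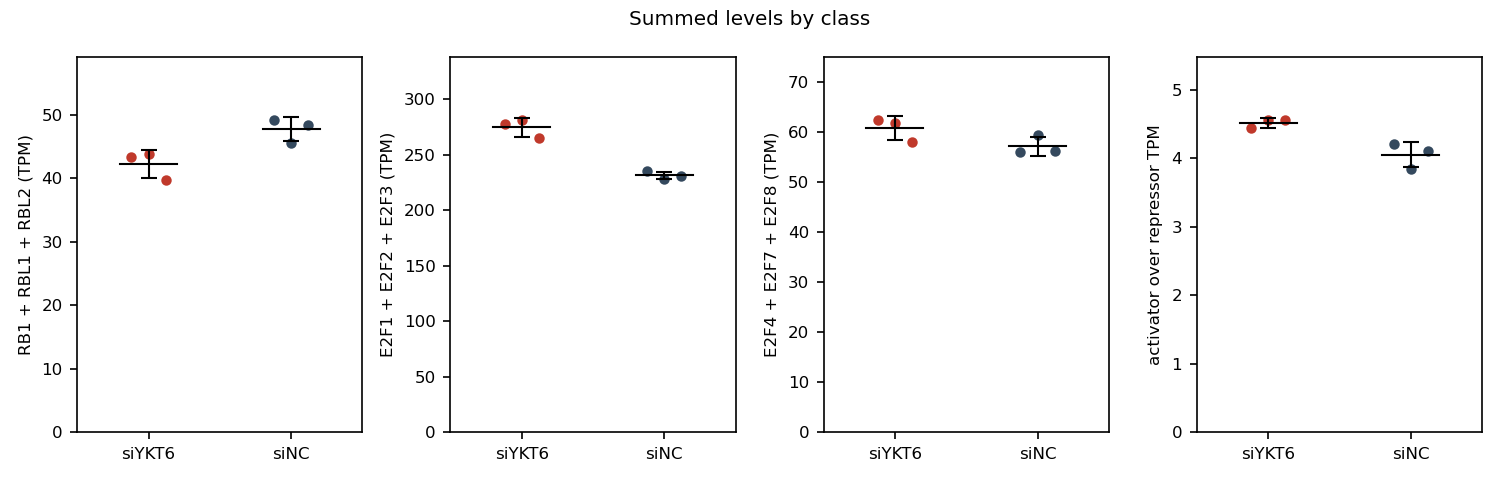
Summed TPM of the pocket protein, activator E2F and repressor E2F genes, and the activator sum over the repressor sum, on axes from 0, with siYKT6 samples left, siNC samples right, means as bars and SD as whiskers. The pocket sum is lower and the activator sum and the ratio are higher in each siYKT6 sample than in each siNC sample, while the repressor sums overlap.

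Summed by class, the activator genes were at 274.7 ± 8.72 TPM in siYKT6 samples and 231.4 ± 3.50 TPM in siNC samples (exact permutation p = 0.1, the smallest possible). The repressor genes summed to 60.8 ± 2.42 TPM in siYKT6 samples and 57.2 ± 1.89 TPM in siNC samples, and these overlapped (exact permutation p = 0.2). The activator to repressor ratio was 4.52 ± 0.0709 in siYKT6 samples and 4.05 ± 0.183 in siNC samples, with no overlap (exact permutation p = 0.1). With E2F4 left out, the ratio over E2F7 and E2F8 alone was 6.12 ± 0.127 in siYKT6 samples and 5.87 ± 0.210 in siNC samples, and the groups overlapped (exact permutation p = 0.2). All 6 E2F genes together had 7.94 ± 0.164 times the pocket protein TPM in siYKT6 samples and 6.05 ± 0.225 times in siNC samples (exact permutation p = 0.1). These sums are dominated by E2F3, which held 76.9% ± 0.275 of the E2F TPM in siYKT6 samples and 75.8% ± 0.958 in siNC samples.

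**Figure D4:**
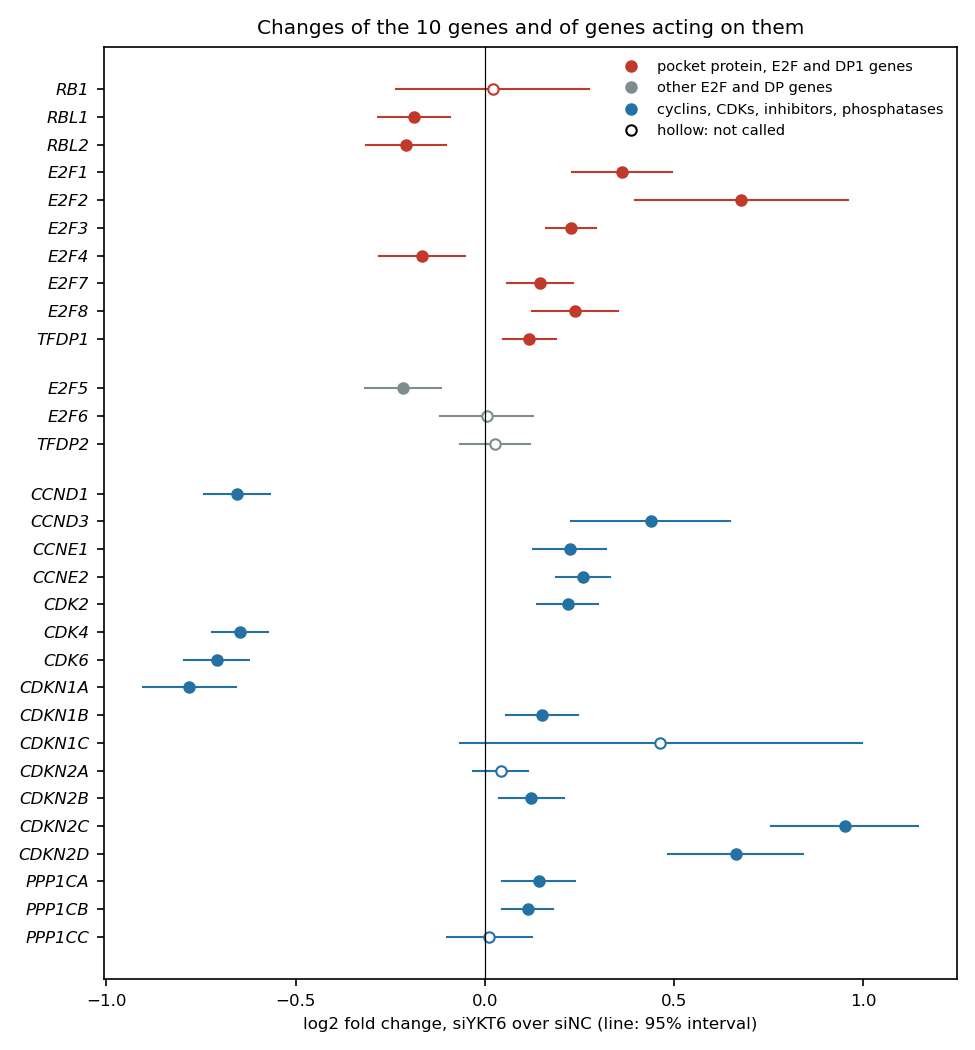
Log2 fold change of siYKT6 over siNC with its 95% interval for the 10 genes, the other E2F and DP genes, and the cyclins, kinases, inhibitors and phosphatases that act on pocket proteins, with filled points for called genes. CDKN1A, CDK6, CCND1 and CDK4 lie between -0.78 and -0.65, and RB1 sits at 0.02 with the widest interval of the 10 apart from E2F2.

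The genes whose products set pocket protein phosphorylation spanned log2 fold changes from -0.78 to 0.95, against -0.21 to 0.68 for the 10 genes themselves. Of 17 tested, 10 (58.8%) were called higher, 4 (23.5%) lower and 3 were not called, against 14.6% higher and 16.3% lower over all genes tested. The median log2 fold change of the 17 was 0.14, against 0.00219 for all genes tested. The 4 lower ones were the kinase genes CDK4 (-0.65) and CDK6 (-0.71), the cyclin D gene CCND1 (-0.66), and CDKN1A (-0.78), the gene of the inhibitor p21. The other cyclin D genes did not follow CCND1: CCND3 was called higher (0.44, edgeR adjusted p = 0.00183) and CCND2 did not pass the filter. Among the higher ones, CDKN2C (0.95) and CDKN2D (0.66) encode inhibitors of CDK4 and CDK6. The later kinase arm rose, with CCNE1 at 0.22, CCNE2 at 0.26 and CDK2 at 0.22 on the log2 scale. CDKN1B, the gene of p27, had 0.15, a call that was lost without siNC sample 3 (log2 fold change 0.13). CDKN2A, whose product p16 is often abundant in cells without RB, was at 91.8 ± 1.93 CPM in siYKT6 samples and 89.1 ± 1.05 CPM in siNC samples and was not called (log2 fold change 0.04, edgeR adjusted p = 0.406). The counts are per gene, so all CDKN2A transcripts are summed, not only those of p16.

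Genes of the complexes that pocket proteins join were called in both directions. Over all genes tested, 14.6% were called higher and 16.3% lower. Of 16 corepressor genes, 8 (50%) were higher, 2 (12.5%) lower and 6 not called. SAP30 (0.50), a SIN3 complex subunit, SMARCA2 (0.39), a chromatin remodelling ATPase, and ARID4A (0.28), which encodes an RB-binding protein, had the smallest p among the higher ones. RBBP8 (-0.59), the gene of the end-resection factor CtIP, which binds RB, was the larger of the 2 lower ones. The other was the deacetylase gene HDAC1 (-0.09), whose call was lost in 7 of 14 alternatives, those without siYKT6 sample 1 or 3 or siNC sample 1 or 3 among them. Of 9 genes of the MuvB core and its partners, 5 (55.6%) were higher, 1 (11.1%) lower and 3 not called. MYBL1 (0.98), MYBL2 (0.44), LIN54 (0.37) and FOXM1 (0.19) were higher, of which MYBL2 and FOXM1 encode activators that act at cell cycle promoters with MuvB. LIN52 (-0.25), whose product joins MuvB to p130 or p107, was lower, and its call was lost without siYKT6 sample 1 (log2 fold change -0.18). Of 8 genes of the E2F6 complex, 2 (25%) were higher, 2 (25%) lower and 4 not called. Of 6 genes of E2F turnover, CCNF (0.20) and FZR1 (0.24) were higher (33.3%) and 4 were not called.

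**Figure D5:**
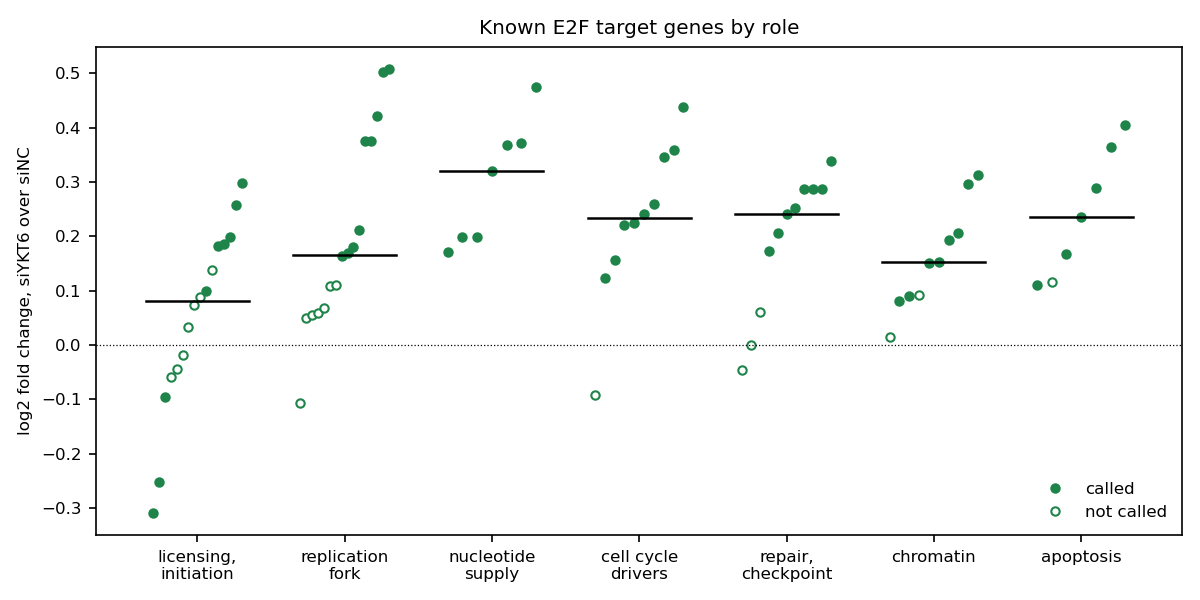
Log2 fold change of siYKT6 over siNC for 77 known E2F target genes by role, with filled points for called genes, hollow points for genes not called and a bar at each median. All 7 genes of nucleotide supply lie above 0, and the 3 genes called lower are all among the licensing genes.

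The known targets of the family moved mostly upward. Of 77 E2F target genes outside the 10, all tested, 53 (68.8%) were called higher, 3 (3.90%) lower and 21 were not called. Over all genes tested, 14.6% were called higher and 16.3% lower. The median log2 fold change was 0.18 for the target genes, against 0.00219 for all genes tested. The target list and the others were chosen with earlier results of these data known, so the counts are a description. All 7 genes of nucleotide supply were higher, among them RRM2 (0.48) and RRM1 (0.37), the subunits of ribonucleotide reductase, TK1 (0.37), thymidine kinase, and TYMS (0.32), thymidylate synthase. Of 10 cell cycle drivers 9 were higher, with MYBL2 at 0.44, BUB1B at 0.36 and CDC25A at 0.35. The lists share genes, such as MYBL2, which also stands among the MuvB partners, so these 9 repeat in part genes counted above. Of 16 replication fork genes 9 were higher and none lower, and those with the smallest p were RPA2 (0.51), a subunit of the single-strand binding complex, FEN1 (0.50), the flap endonuclease, RFC3 (0.42) and LIG1 (0.37).

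Repair, chromatin and apoptosis targets had no gene called lower. Of 11 repair genes 8 were higher, such as BRCA2 (0.34), CLSPN (0.29) and CHEK1 (0.29). Of 10 chromatin genes 8 were higher, such as UHRF1 (0.31), HELLS (0.30) and EZH2 (0.21). Of 7 apoptosis genes 6 were higher, such as TP73 (0.29) and APAF1 (0.17). The licensing genes were split: of 16, 6 were higher, 3 lower and 7 not called. ORC1 (0.30), MCM2 (0.26) and MCM7 (0.20) were higher, whereas DBF4 (-0.31), the activating subunit of the CDC7 kinase, and CDC6 (-0.25), the MCM loader, were lower. MCM6 (-0.10) was also called lower, but this was lost in 8 of 14 alternatives, those without any siYKT6 sample or without siNC sample 1 or 3 among them.

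E2F words stood in the promoters of genes of both directions. Of 604 tested genes with a word, 22.7% were called higher and 16.7% lower, with a median log2 fold change of 0.02. Of 10827 tested genes with an entry and no word, 17.5% were higher and 20.5% lower. Among the E2F target genes with an entry, 15 of 22 with a word (68.2%) and 28 of 44 without one (63.6%) were higher. Of the 10 genes, 4 with a word were higher (E2F1, E2F2, E2F3 and TFDP1) and RBL1, also with a word, was lower. Without a word, E2F7 was higher and E2F4 and RBL2 were lower.

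Reads of overlapping genes could touch some of these values, since the sources used here do not state whether the counting used strand. RB1, RBL1, RBL2, E2F3 and E2F8 have other genes with an exon inside their gene body, 15 in all, of which 4 share exonic bases. AKTIP and RP11-44F14.7, on the strand opposite to RBL2, share 610 and 721 bases with it, which is 8.33% and 9.85% of its counted length. RP4-621N11.2, opposite to RBL1, shares 211 bases (3.54%), and RP11-428C19.4, opposite to E2F8, shares 7 bases. AKTIP had a log2 fold change of 0.18 and was not called (edgeR adjusted p = 0.0506), though 8 of 14 alternatives called it (adjusted p from 0.0283 to 0.207 over all), those without siYKT6 sample 2 (0.22) or siNC sample 3 (0.23) among them. RP11-44F14.7 had a log2 fold change of -0.27 and RP4-621N11.2 -0.24. The call of RP11-44F14.7 was lost without siNC sample 1 (-0.23), and that of RP4-621N11.2 without siYKT6 sample 3 (-0.16) or siNC sample 3 (-0.23). The part of these genes in the RBL1 and RBL2 values was not tested. The 11 genes with no exonic base in common had at most 151 counts in any library, and E2F1, E2F2, E2F4, E2F7 and TFDP1 have no such neighbour.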

How the data were processed

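RNA was measured in 6 samples of 5637 cells, 3 siYKT6 and 3 siNC. Per the study's methods and processing notes, total RNA was made into stranded mRNA libraries, reads were filtered with fastp 0.23.0, and genes of GRCh38 were counted with featureCounts (Subread 1.5.1). The sources used here name neither the aligner nor the strand setting. The values deposited by the authors are raw counts per gene. Among counts from 1 to 20, 68.8% to 70.0% were even, so each read pair may have been counted by its mates, and halved counts were an alternative.

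Counts were tested with edgeR 4.0.16 (R 4.3.3; TMM scaling, filterByExpr, quasi-likelihood test, Benjamini-Hochberg over 21036 genes, 15851 left out), siYKT6 over siNC, without covariates. Alternatives were DESeq2 1.42.0, limma-voom 3.58.1, other scalings and filters, a replicate block and each sample left out. CPM used the TMM-scaled library size of the tested genes, and TPM used the file's gene lengths. Class sums and ratios were compared by exact two-sided permutation tests. At an unadjusted p below 0.05, 8307 genes passed.

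Members and lists were chosen with earlier results of these data known. Named genes were the members, other E2F and DP genes, the main cyclins, CDKs and inhibitors, overlapping genes and, from each list, the called genes of smallest p, up to 4 per direction. CDH1, CCND2 and CCND3, which fall outside this rule, were named after their values were seen. A few genes under this rule are not reported here. Promoter sequences and start sites are RefSeq's.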

Additional observations from a re-analysis of the deposited data

How the results depend on the processing

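Over 14 alternative fits 7 to 9 of the 10 members were called. Leaving out 1 sample gave 7 to 9 members called, 5 to 6 higher and 2 to 3 lower; 52 to 55 E2F targets called, 50 to 53 higher and 2 to 3 lower; and 5419 to 6058 genes called in all, 2503 to 2814 higher and 2916 to 3244 lower. The difference in RB1 share ran from 0.23 to 0.699 percentage points and that in the activator to repressor ratio from 0.367 to 0.545. Log2 fold changes that turned sign when 1 sample was left out belonged to genes never called: RB1 (-0.0864 to 0.130), E2F6 (-0.0443 to 0.0328), TFDP2 (-0.00983 to 0.0575), RP11-44F14.6 (-0.0243 to 0.362), RP11-428C19.4 (-0.20 to 0.29) and E2F3-IT1 (-0.13 to 0.16).

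The replicate numbers did not pair the samples: same-numbered deviations correlated at 0.00647, -0.00469 and 0.00919. A replicate block left 9 members, 53 E2F targets and 6270 genes called, ended the calls of HDAC1 (-0.09) and MCM6 (-0.10) and added AKTIP (0.18). DESeq2 called 5862 genes and the same number of members, and upper quartile scaling moved the median of all genes by 0.02 on the log2 scale. With 3 samples a group the exact tests cannot go below 0.1, and RB1 had the widest interval of the 10 members but for E2F2.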
